A study of Mus musculus with 6 samples.

Results

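Cytokines, chemokines and their receptors were followed in RNA sequencing of keratinocytes, which form most of the epidermis, isolated from the tails of mice with and without epidermal Gpr161, a receptor of the primary cilium that restrains Hedgehog signalling. The members were all genes whose symbol began with Ccl, Cxcl, Cx3cl, Ccr, Cxcr, Ackr, Il, Tnfsf or Tnfrsf followed by a digit, apart from Il17rd, a regulator of fibroblast growth factor signalling that shares the interleukin receptor name. The rule found 125 genes of 19618 in the deposited count table, and it used no measured value. The knockout mice carried K14cre, a transgene that expresses Cre recombinase from a keratin 14 promoter, together with homozygous floxed Gpr161. K14cre is not listed for the controls, of which the mouse titled 1 was homozygous and the mice titled 2 and 3 were heterozygous for floxed Gpr161. A transgene effect and the deletion therefore cannot be told apart. All mice were 4 months old, and each group had 3 libraries of stranded polyadenylated RNA. Libraries are named by the tags in the column names, which give the group but not the mouse: the knockout libraries are DE679, DE685 and DE688, and the controls DE680, DE684 and DE689.

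Chemokines are small secreted proteins that bind receptors with 7 membrane passes and guide migrating cells, while the atypical receptors (Ackr) bind chemokines without the usual G protein signal and can remove them. Interleukins act through chains that pair on the cell surface, so that 1 chain, such as Il6st (gp130), can serve several ligands. TNF superfamily ligands bind trimeric receptors that feed NF-kB and cell death pathways. In the epidermis, keratinocytes are known both to make such signals and to respond to them, and resident Langerhans cells and T cells carry many of the receptors.

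Total estimated counts ran from 17157864 to 25344399 per library, and levels are given as CPM, that is counts relative to the library total after TMM scaling. Gpr161, the targeted gene, had 26.8, 33.6 and 25.9 CPM in DE679, DE685 and DE688, and 30.2, 32.2 and 31.9 CPM in DE680, DE684 and DE689. These counts over the whole gene overlapped between the groups (log2 fold change −0.13, SE 0.11, edgeR adjusted p = 0.553), so they do not check the labels. The 8 keratinocyte markers summed to 44021 to 53649 CPM in the knockout and 42332 to 60668 CPM in the control, and edgeR called none of the 8. The basal cell genes Krt15, at 1881 and 1443 CPM in the group means, and Trp63, at 649 and 552 CPM, and also Krt5 were above all controls in each knockout library, while Perp was below them (3857 and 4388 CPM) and the suprabasal Krt1 and Krt10 overlapped. DESeq2 called Krt15 and Trp63, and the sex covariate fit called Krt15; their part in the member values was not tested. One library in each group, DE685 and DE684, held Y-linked transcripts. Nothing in the labels says how the mice were paired or housed. The p-values set the difference between genotypes against the spread among libraries of a group. That spread comes from these 6 libraries, in a fit across all genes tested.

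Of the 125 members, 89 passed the filter on low counts and were tested, and 3 of these differed between the genotypes at an adjusted p under 0.05: Cxcr4 and Il7 rose and Cx3cl1 fell in the knockout. Over all 15422 genes tested, 1.6% passed the same threshold (247 genes, 1.24% higher and 0.357% lower), against 3.37% of the tested members. The CPM values of the groups did not overlap for 20 tested members, 13 higher and 7 lower in the knockout, which is 22.5% against 25.6% of all genes tested (12.8% in each direction), so the members stood apart no more often than genes in general. An unadjusted p under 0.05 was reached by 21 of the 89 tested members, against 19.0% of all genes. DESeq2 called 10 of the 89, adding Ackr3, Ackr4, Ccl27a, Il11ra1, Il17re, Il22ra1 and Il6st, against 5.7% of all genes by the same tool. A sex covariate added Ackr3 alone, against 2.65% of all genes. The filter can admit a gene through 1 group: 7 members reached its minimum in all 3 knockout libraries but not in all 3 controls, Cxcr4 among them, and 2 members the other way round.

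By role, the receptors were mostly higher and the ligands mostly lower in the knockout, by small amounts. Of 54 receptor genes tested, 36 had a log2 fold change above 0 and 18 below, with a median of 0.26. Of 33 ligand genes tested, 13 were above 0 and 20 below, with a median of −0.04. Over all genes 49.3% were above 0 and the median was −0.0036. The difference between ligands and receptors was not tested, since genes are not replicates. Cxcr4, Cxcr6, Il7r, Il2rb, Tnfrsf25 and the ligand Ccl27b reached the filter's minimum in all 3 knockout libraries but not in all 3 controls. The ligands Ccl21b and Il1f10 did the reverse. These counts and medians therefore depend in part on the filter.

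By family, chemokine receptors had the highest median, 0.88 over 9 genes tested of 16, with 7 above 0 and 1 called. Of the 9, 7 had an unadjusted p under 0.05, against 19.0% of all genes. Among these 9, Cxcr4 and Cxcr6 reached the filter's minimum in all knockout libraries but not in all controls. Interleukin receptor chains had 20 above 0 and 11 below (median 0.28, none called), and TNF receptors 9 above and 5 below (median 0.09, none called). Interleukin ligands leaned the other way, with 3 above 0 and 12 below (median −0.17), although the single called member, Il7, rose. CC chemokine ligands were evenly divided, 6 and 6 (median 0.04; 3 at an unadjusted p under 0.05, none called by edgeR and Ccl27a by DESeq2), and CXC and CX3C ligands had 3 above and 2 below (median 0.03). The CC count, like that of all ligands, takes near-identical genes singly: Ccl27a and Ccl27b above 0, and Ccl21a, Ccl21b and Ccl21d below. Il11ra1 and Il11ra2, both above 0, likewise enter the interleukin receptor chains. A single TNF superfamily ligand, Tnfsf13, was abundant enough to test. With 1 library left out, the chemokine receptor median ran from 0.60 without DE679 to 1.53 without DE680, and was 1.37 without DE685. It stayed above 0 in all settings tried. That of interleukin ligands stayed below 0, from −0.29 (without DE689) to −0.11 with 1 library left out. The CC ligand median had no stable sign, from −0.13 with limma-voom to 0.44 with a minimum mean of 1 CPM.

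**Figure D1:**
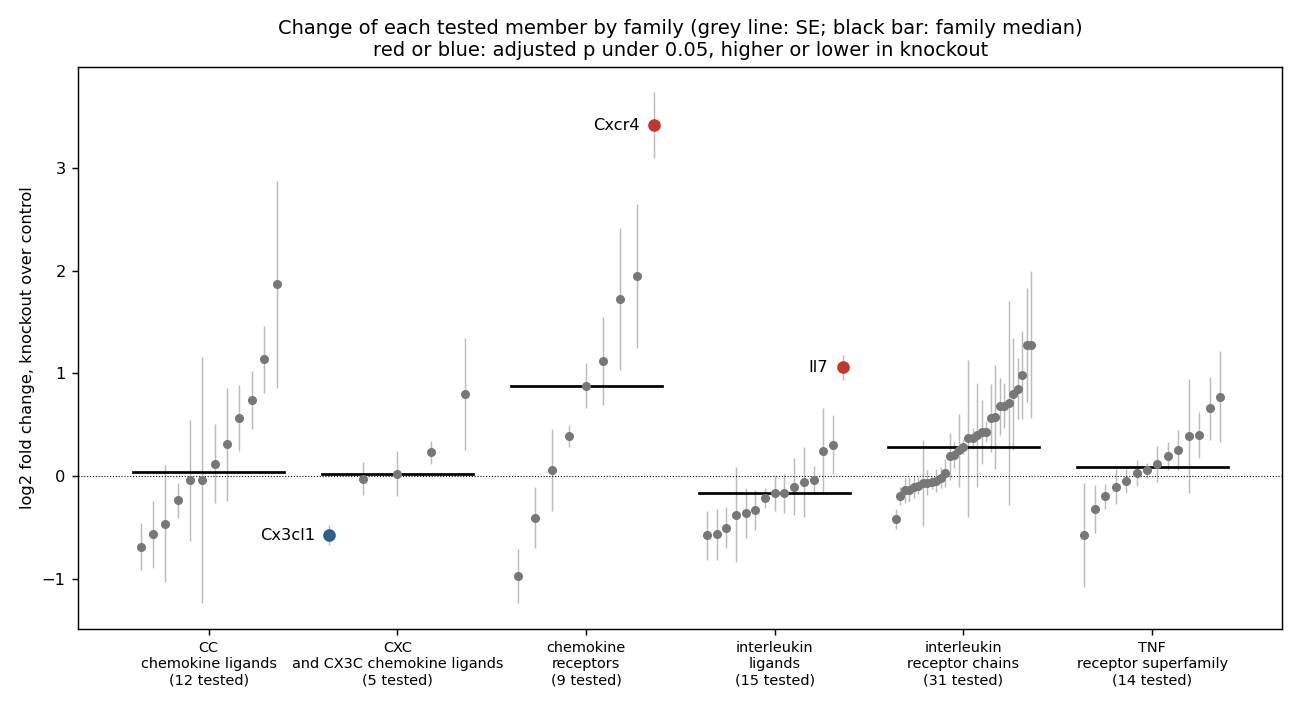
Log2 fold change of knockout over control for the tested members of 6 families, each point 1 gene with its SE as a grey line, and the family median as a black bar. Cxcr4 and Il7 (red) and Cx3cl1 (blue) passed an adjusted p of 0.05, and the medians run from −0.17 in interleukin ligands to 0.88 in chemokine receptors.

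The largest difference was in Cxcr4, the receptor for the chemokine Cxcl12 that is known for guiding leukocytes, stem cells and migrating progenitors. Cxcr4 (chromosome 1, 128588199 to 128592293, minus strand, GRCm38) had 3.99, 4.16 and 4.67 CPM in DE679, DE685 and DE688, and 0.222, 0.439 and 0.516 CPM in DE680, DE684 and DE689. The knockout libraries lay close together and all stood far above the controls, whose values rest on 5 to 13 counts against 72 to 120 in the knockout. The means were 4.27 ± 0.35 CPM (SD, n = 3) and 0.392 ± 0.152 CPM (SD, n = 3), a log2 fold change of 3.42 (SE 0.32, 10.7-fold, edgeR adjusted p = 0.00396). The call held whichever of the 6 libraries was left out, with log2 fold changes from 3.14 to 3.67 and edgeR adjusted p from 0.0141 to 0.0224. On the scale log2(authors' value + 1), which understates changes of low genes, the difference was 1.92.

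Ackr3, the atypical receptor that binds the same ligand and is known to scavenge it, was among the most abundant receptors of the family. Its values were 88.0, 45.1 and 61.3 CPM in DE679, DE685 and DE688, and 35.5, 31.4 and 39.0 CPM in DE680, DE684 and DE689. All 3 knockout libraries exceeded all controls, but they were spread widely, with DE685 only just above the highest control. The log2 fold change was 0.88 (SE 0.22) and did not pass (edgeR adjusted p = 0.103). It passed with a sex covariate (0.0364), without DE685 (0.0498) and with DESeq2 (0.000572), and was 0.60 on the log2 scale without DE679 (edgeR adjusted p = 0.214).

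Cxcl12, the ligand of both receptors, had 32.0, 39.7 and 32.0 CPM in DE679, DE685 and DE688, and 30.9, 30.8 and 26.4 CPM in DE680, DE684 and DE689. The groups did not overlap, but by a narrow margin (log2 fold change 0.23, SE 0.11, edgeR adjusted p = 0.303). Per kb of merged exons, the scale on which genes can be compared, Ackr3 averaged 14.9 CPM per kb over the 6 libraries, Cxcl12 3.91 and Cxcr4 1.29. Cxcr4 thus stayed the scarcest of the 3 transcripts in the mean over all libraries. Fibroblasts, which are known to make Cxcl12, were followed by 6 markers whose sum was 129 to 142 CPM in the knockout and 37.4 to 79.1 CPM in the control, with 1 of 5 tested markers called. That marker was Dcn (decorin), which made up most of the sum, at 112 to 123 CPM against 20.8 to 40.6 CPM. Col1a1, Col1a2 and Col3a1 had the opposite sign, with log2 fold changes of −0.38, −0.42 and −0.54. Pdgfra was close to level (0.035). Each of these other markers overlapped between groups. The part of other cells in the Cxcl12 values was not tested.

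**Figure D2:**
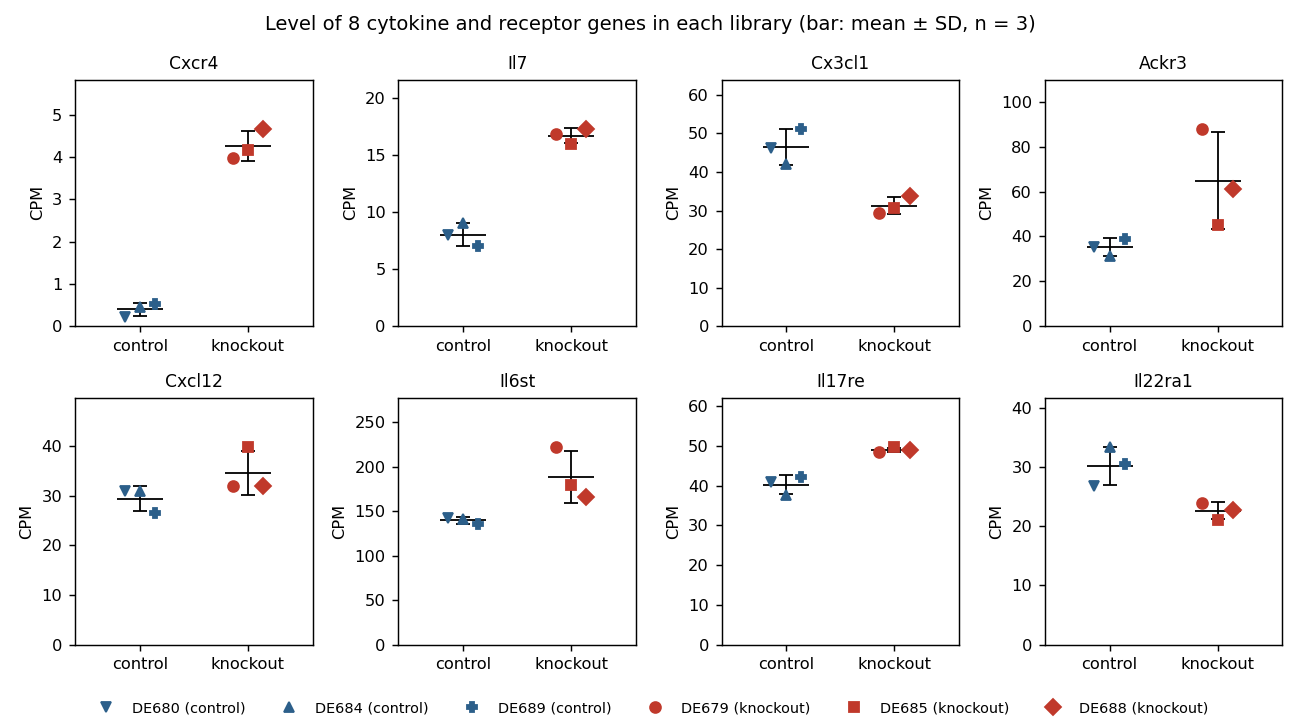
CPM of 8 genes in each of the 6 libraries, with controls in blue, knockouts in red and the mean ± SD of each group as a bar; each y axis starts at 0. Cxcr4 and Il7 show tight groups far apart, Cx3cl1 is lower in all 3 knockout libraries, and Ackr3 and Il6st are spread by the high value in DE679.

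The sequence before the start of Cxcr4 and Ackr3 is shown because both receptors of Cxcl12 lay above all controls. The stretches are the 250 bases upstream of the RefSeq start, GRCm38.p6, 5′ to 3′ on the gene's strand, at chr1:128592300-128592549 (minus strand) for Cxcr4 and chr1:90203730-90203979 (plus strand) for Ackr3. Capitals mark TATAAA, the core letters of a TATA box.
Cxcr4: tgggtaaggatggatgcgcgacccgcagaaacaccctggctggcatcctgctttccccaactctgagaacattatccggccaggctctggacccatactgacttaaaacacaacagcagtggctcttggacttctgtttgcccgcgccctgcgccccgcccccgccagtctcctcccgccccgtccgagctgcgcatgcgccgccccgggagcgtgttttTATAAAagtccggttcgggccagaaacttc
Ackr3: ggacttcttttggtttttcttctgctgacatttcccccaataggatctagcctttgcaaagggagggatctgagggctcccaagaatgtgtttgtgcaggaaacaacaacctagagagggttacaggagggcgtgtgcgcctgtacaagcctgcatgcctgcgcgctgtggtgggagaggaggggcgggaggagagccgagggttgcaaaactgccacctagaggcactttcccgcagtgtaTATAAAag
Both windows hold TATAAA near their end, closer to the start in Ackr3 than in Cxcr4. The same window of Cx3cl1, which fell, also holds TATAAA, and that of Cxcl12 does not. In windows of 300 bases (250 before and 50 after the start), TATAAA on the gene's strand was present for 12 of 99 members matched by symbol (12.1%) and for 9.77% of 27025 genes. The kappa-B consensus, the site of NF-kB factors, was found on either strand for 13 members (13.1%) and 5.14% of all genes, in Ccl20, Ccl27a, Cxcl1 and Cxcl10 among others. The core of the Gli binding site, GACCACCCA, was in no member window on either strand and in 0.289% of all. These are letter matches in 1 window, not binding sites.

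Among the remaining chemokine receptors, the scavenger Ackr4, known to bind Ccl19, Ccl21 and Ccl25, had 58.3, 69.7 and 63.1 CPM in DE679, DE685 and DE688, and 42.1, 52.1 and 51.3 CPM in the controls DE680, DE684 and DE689. The groups did not overlap, and the log2 fold change of 0.39 (SE 0.10) missed the threshold (edgeR adjusted p = 0.112). Exons of Acad11 on the other strand overlap 8.9% of its exon length, and whether counting used strand is not given in the sources used here. Cxcr2, a receptor for Cxcl1 that is best known from neutrophils, was the only receptor of the family with lower values in all knockout libraries. It had 1.31 to 1.56 CPM in the knockout and 2.31 to 3.53 CPM in the control (log2 fold change −0.97, SE 0.26, edgeR adjusted p = 0.115). Of 6 neutrophil markers, Camp alone was in the table, at 0.347 to 3.23 CPM in the knockout and 0.439 to 2.62 CPM in the control. Ccr9 and Ccr10 overlapped between the groups.

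Ccr4, Ccr2 and Cxcr6, known from T cells and monocytes, had high fold changes with wide spread. Ccr4 had 6.83, 2.89 and 4.59 CPM in DE679, DE685 and DE688 against 3.50, 1.80 and 1.31 CPM in DE680, DE684 and DE689 (log2 fold change 1.12, SE 0.43, edgeR adjusted p = 0.222). Ccr2 ran from 0.389 to 2.33 CPM in the knockout and 0.159 to 0.577 CPM in the control (1.95, SE 0.70, edgeR adjusted p = 0.200). Cxcr6 ran from 0.700 to 4.66 CPM and from 0.397 to 0.965 CPM (1.73, SE 0.69, edgeR adjusted p = 0.233). All 3 overlapped between groups, and all 3 were highest in DE679. Without that library the log2 fold changes were 0.78 for Ccr4, 1.34 for Ccr2 and 0.70 for Cxcr6, while that of Cxcr4 was 3.47.

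The same library was highest for chains of T cell cytokine receptors. Il7r, the receptor chain for Il7, had 2.12, 1.21 and 1.21 CPM in DE679, DE685 and DE688 and 1.06, 0.175 and 0.635 CPM in DE680, DE684 and DE689. These values did not overlap but rest on 4 to 50 counts a library (log2 fold change 1.27, SE 0.56, edgeR adjusted p = 0.267). Il18r1, Il12rb1, Il2rb and the common gamma chain Il2rg were also highest in DE679 and overlapped between groups, with log2 fold changes from 0.57 to 1.28 and none called.

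The marker sums of Langerhans cells and of epidermal T cells were also highest in DE679, but the order of the other libraries differed between them. The 7 Langerhans cell markers, all tested, were all above 0 in log2 fold change and none was called, and their sum was 206, 100.0 and 200.4 CPM in DE679, DE685 and DE688 and 177, 67.2 and 131 CPM in DE680, DE684 and DE689. Of 8 epidermal T cell markers, 7 were in the table (Gzmb was not), 5 were tested and none was called by edgeR, while DESeq2 and the edgeR fit with the sex covariate called Thy1. Their sum was 62.2, 49.96 and 42.4 CPM in the knockout and 31.5, 22.2 and 35.9 CPM in the control, a ratio of group means of 1.73. Thy1 made up most of that sum, at 36.6 to 49.3 CPM against 18.8 to 28.6 CPM, while Cd3e, Cd3g and Trdc overlapped between groups. Macrophage and monocyte markers summed to 7.86 to 18.01 CPM and 5.79 to 11.9 CPM, and none of 5 mast cell markers was in the table. In bulk libraries, fewer cells of a type and less RNA per cell cannot be told apart. The part of leukocytes in the receptor values was not tested.

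**Figure D3:**
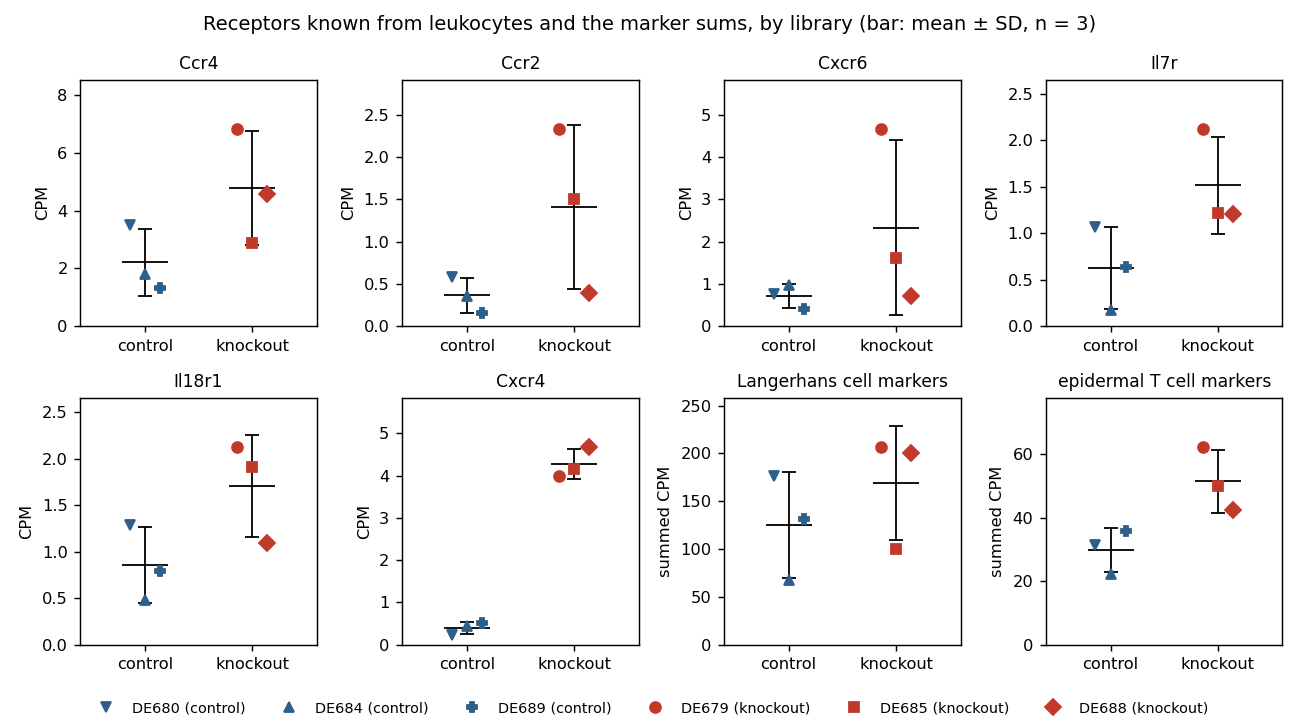
CPM by library for 6 receptor genes known from leukocytes and the summed CPM of the Langerhans cell and epidermal T cell markers, with the mean ± SD of each group as a bar and each y axis starting at 0. DE679 is the highest library in all panels but that of Cxcr4, where the 3 knockout libraries lie between 3.99 and 4.67 CPM.

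Among the chemokine ligands, Cx3cl1 (fractalkine), which is made as a membrane-bound protein and binds Cx3cr1, fell. Cx3cl1 (chromosome 8, 94772009 to 94782427, plus strand) had 29.4, 30.6 and 33.7 CPM in DE679, DE685 and DE688, and 46.4, 42.0 and 51.2 CPM in DE680, DE684 and DE689. The groups were well apart, at 31.2 ± 2.2 and 46.5 ± 4.6 CPM (SD, n = 3 per group). The log2 fold change was −0.57 (SE 0.09, 1.49-fold lower, edgeR adjusted p = 0.0354). This call was the least firm of the 3: it was lost in 5 of the 6 fits that left out 1 library, with log2 fold changes from −0.63 to −0.50 and edgeR adjusted p of 0.154 without DE679, 0.0948 without DE680, 0.0917 without DE685, 0.0799 without DE688 and 0.0976 without DE689. It held without DE684 (0.0380). It was kept by all 8 other settings tried.

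The most abundant chemokine by length was Cxcl14, a constitutive epidermal chemokine, at 142 CPM per kb. It had 234, 229 and 306 CPM in DE679, DE685 and DE688 and 205, 276 and 301 CPM in DE680, DE684 and DE689. These overlapped fully (log2 fold change −0.02, SE 0.16, edgeR adjusted p = 0.954). Cxcl16, the ligand of Cxcr6, overlapped too, at 16.8 to 26.3 CPM and 18.2 to 29.1 CPM. Chemokines known to be induced in inflamed skin were scarce: Cxcl1 had at most 0.933 CPM and Ccl2 at most 1.33 CPM in any library, and Cxcl9 and Cxcl10 were too low to test. Ccl20, the ligand of Ccr6, had 1.14 to 1.36 CPM in the knockout and 0.658 to 0.887 CPM in the control (log2 fold change 0.74, SE 0.28, edgeR adjusted p = 0.221). Ccl6, known from myeloid cells, was lower in all 3 knockout libraries, at 4.20 to 6.07 CPM against 6.43 to 10.5 CPM (−0.69, SE 0.23, edgeR adjusted p = 0.174).

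Ccl27a, a keratinocyte chemokine that attracts T cells bearing Ccr10, belongs to a block of near-identical genes on chromosome 4 that also holds copies of Ccl21 and Il11ra1. It had 8.40, 6.41 and 16.3 CPM in DE679, DE685 and DE688, and 4.39, 5.18 and 4.64 CPM in DE680, DE684 and DE689 (log2 fold change 1.14, SE 0.33, edgeR adjusted p = 0.132). Its copies differ by so few bases that counting can split reads between them. Over 425 aligned transcript bases, Ccl27a and Ccl27b differ at 3, all within the coding stretch of 203 spliced bases printed here from GENCODE M21 (GRCm38), where capitals mark the differing bases. The coding regions span chr4:41769498-41770187 (minus strand) for Ccl27a and chr4:42655285-42655977 (plus strand) for Ccl27b.
Ccl27a: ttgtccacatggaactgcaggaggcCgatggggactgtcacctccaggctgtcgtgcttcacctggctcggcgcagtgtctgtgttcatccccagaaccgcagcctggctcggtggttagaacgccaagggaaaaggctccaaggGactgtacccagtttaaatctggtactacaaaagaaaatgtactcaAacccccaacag
Ccl27b: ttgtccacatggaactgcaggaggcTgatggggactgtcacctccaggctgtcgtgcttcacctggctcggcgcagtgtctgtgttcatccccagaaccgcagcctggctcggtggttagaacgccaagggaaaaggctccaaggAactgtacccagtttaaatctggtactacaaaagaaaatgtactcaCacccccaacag

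Counts assigned to the copies differed between libraries more than the sum did. The share of the Ccl27 total assigned to Ccl27b and the copy Gm13306 was 65.8%, 78.9% and 10.7% in DE679, DE685 and DE688, and 61.3%, 45.9% and 4.88% in DE680, DE684 and DE689. For Il11ra1, the receptor chain for Il11, the share in Il11ra2 and Gm13305 was 36.01%, 38.0% and 2.19% in the knockout and 33.1%, 21.5% and 1.66% in the control, in the same order. DE688 and DE689, 1 library of each group, thus assigned few reads to the extra copies of both genes. For Ccl21a the order differed: the share in its copies was 27.8% in DE688 and 31.5% in DE689, and 11.4% to 20.9% in the other libraries. The cause of these uneven shares was not tested. In an alternative chosen after seeing the data, each gene was summed with its copies.

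Summed, Ccl27 had 24.6, 30.4 and 18.2 CPM in DE679, DE685 and DE688 against 11.4, 9.56 and 4.88 CPM in DE680, DE684 and DE689. Each knockout library lay above every control, with a log2 fold change of 1.504 (SE 0.31, 2.84-fold, edgeR adjusted p = 0.0625). That just missed the threshold, as it did with limma-voom (0.0630), while DESeq2 gave 5.1e-06. Leaving out 1 library at a time gave edgeR adjusted p from 0.0833 to 0.193. Summed Il11ra had 60.4 to 83.4 CPM in the knockout and 45.5 to 57.0 CPM in the control (0.51, SE 0.13, edgeR adjusted p = 0.105, DESeq2 0.00591). Summed Ccl21, the ligand of Ccr7 and Ackr4, overlapped between groups at 7.74 to 12.9 CPM and 10.6 to 22.1 CPM (−0.59, SE 0.28, edgeR adjusted p = 0.300).

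**Figure D4:**
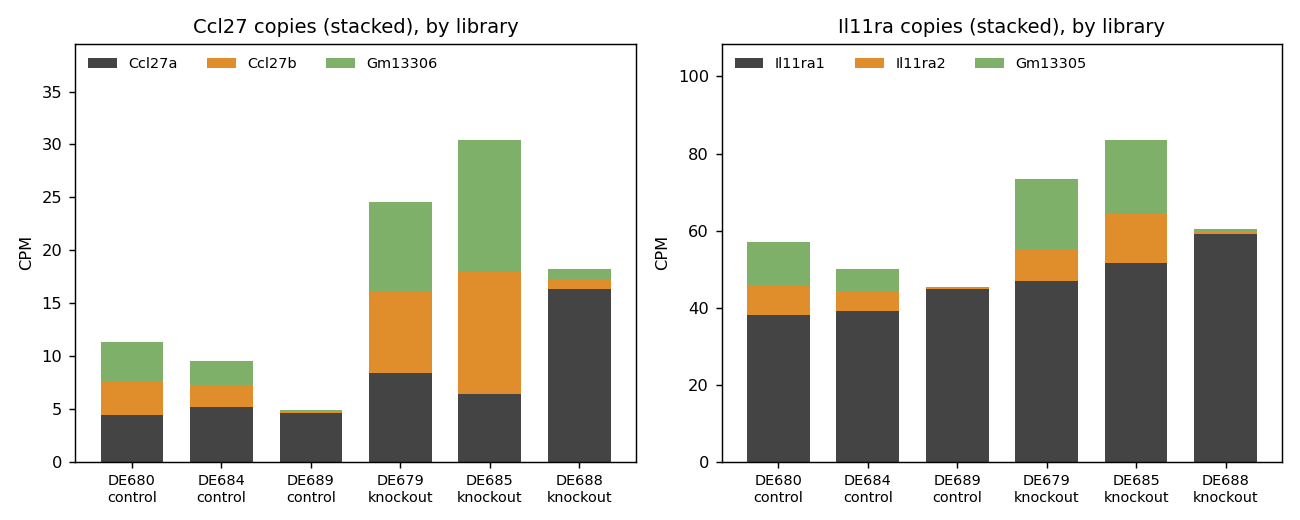
Stacked CPM of Ccl27a, Ccl27b and Gm13306 (left) and of Il11ra1, Il11ra2 and Gm13305 (right) in each library, with the y axis starting at 0. The full bars of the knockout exceed those of the control for both sets, and the coloured parts assigned to the extra copies are small in DE688 and DE689.

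Among the interleukins, Il7, known as a survival factor for T cells that skin epithelium also makes, rose. Il7 (chromosome 3, 7569994 to 7613760, minus strand) had 16.8, 15.9 and 17.3 CPM in DE679, DE685 and DE688, and 7.99, 9.04 and 6.98 CPM in DE680, DE684 and DE689. The 2 groups were tight and well apart, at 16.7 ± 0.68 and 8.00 ± 1.03 CPM (SD, n = 3 per group). The log2 fold change was 1.06 (SE 0.12, 2.09-fold, edgeR adjusted p = 0.00941). It was called in 5 of 6 fits that left out 1 library and missed without DE688 (log2 fold change 1.03, edgeR adjusted p = 0.0559). An antisense gene, Gm16685, overlaps 1.85% of its exon length.

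Most other interleukin ligands were slightly lower, and none passed. The interleukin-36 cytokines, epidermal members of the interleukin-1 family listed under older symbols, lie together on chromosome 2 and were all below 0. Il1f8 (Il36b) had 6.28 to 7.62 CPM in the knockout and 7.70 to 12.9 CPM in the control, without overlap (log2 fold change −0.50, SE 0.20, edgeR adjusted p = 0.241). Il1f9 (Il36g), Il1f6 (Il36a) and the receptor antagonist Il1f5 (Il36rn) had log2 fold changes of −0.33, −0.36 and −0.21. Agonists and antagonist therefore leaned the same way, and their receptor chains Il1rl2 and Il1rap overlapped between groups (−0.06 and −0.13). Il15, which shares the gamma chain with Il7, had 1.10 to 1.33 CPM in the knockout and 1.71 to 2.00 CPM in the control (−0.57, SE 0.24, edgeR adjusted p = 0.253). Il17d had 2.12 to 3.15 CPM against 3.16 to 4.80 CPM, barely apart.

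The abundant interleukins were close to level. Il33, a nuclear alarmin of barrier epithelia, was the highest of them per length at 27.8 CPM per kb, with 72.5 to 88.5 CPM in the knockout and 72.5 to 98.7 CPM in the control. Il34, the keratinocyte ligand that maintains Langerhans cells, ranged widely in both groups, from 33.2 to 54.2 CPM and from 21.8 to 48.4 CPM (log2 fold change 0.31, SE 0.29, edgeR adjusted p = 0.603). It was lowest in DE685 and DE684, which were also the lowest of their groups for the Langerhans cell sum. These are the libraries with Y-linked transcripts, and a link between Il34 and the Langerhans cell sum was not tested. Il1rn, the antagonist of interleukin-1, had 27.0 to 31.1 CPM and 26.5 to 41.7 CPM. Il1a had at most 2.50 CPM, and Il1b was too low to test, with 13 counts over all libraries.

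**Figure D5:**
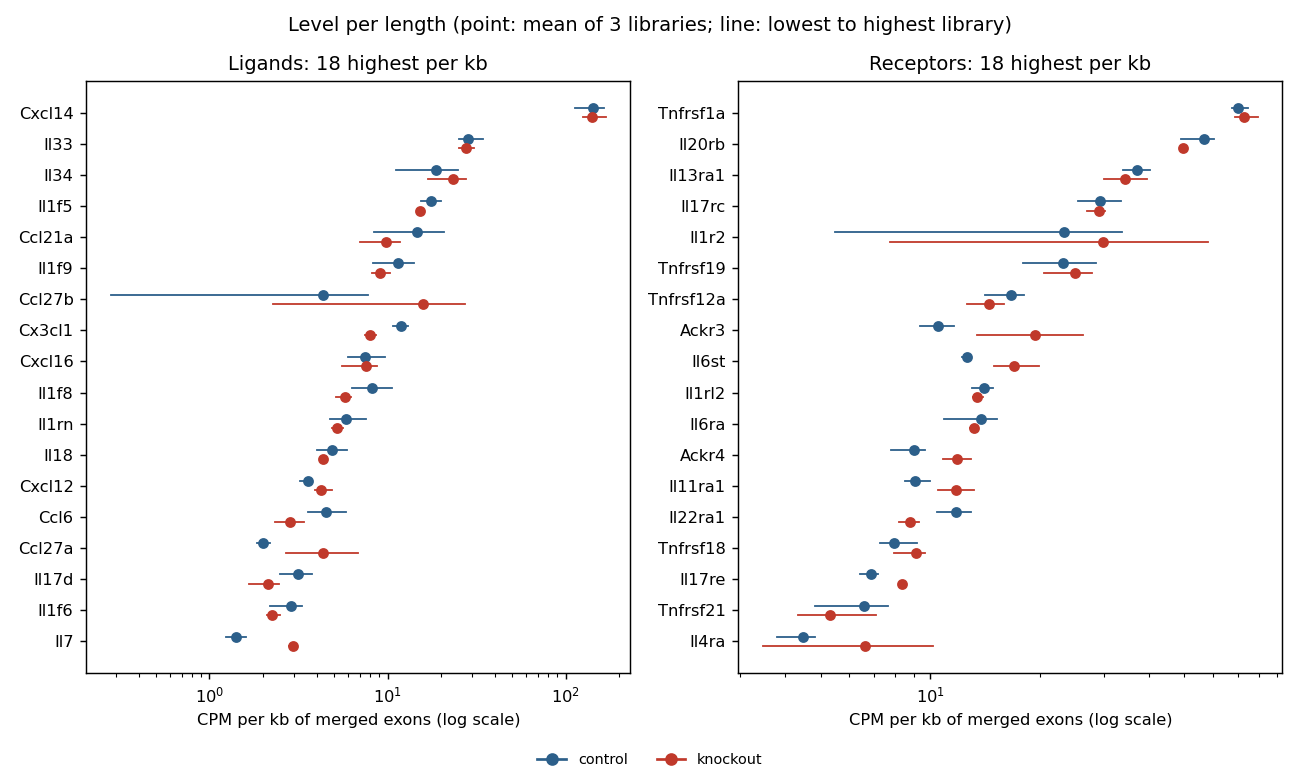
Mean CPM per kb of merged exons on a log axis for the 18 highest ligands (left) and receptors (right), as points for control (blue) and knockout (red), with lines from the lowest to the highest of 3 libraries. Cxcl14 leads the ligands and Tnfrsf1a the receptors, and the lines of most genes overlap between the groups.

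Among the 31 interleukin receptor chains tested, edgeR and limma-voom called none. DESeq2 called 4 (Il6st, Il17re, Il22ra1 and Il11ra1), against 5.7% of all genes by that tool. An unadjusted p under 0.05 was reached by 7 of the 31, against 19.0% of all genes. Il6st, the shared signalling chain of Il6 and Il11, had 222, 179 and 166 CPM in DE679, DE685 and DE688, and 143, 141 and 135 CPM in DE680, DE684 and DE689. The controls were nearly equal and all knockout libraries lay above them, DE679 farthest (log2 fold change 0.43, SE 0.10, edgeR adjusted p = 0.0938). Il17re, a subunit of the receptor for Il17c, had 48.6, 49.6 and 48.9 CPM against 40.9, 37.6 and 42.2 CPM, a small difference between tight groups (0.28, SE 0.07, edgeR adjusted p = 0.0940). Its partner Il17ra and the chain Il17rc overlapped between groups.

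Il22ra1, a chain of the Il22 receptor, differed in the opposite direction. It had 24.0, 21.1 and 22.7 CPM in DE679, DE685 and DE688, and 26.8, 33.3 and 30.4 CPM in DE680, DE684 and DE689 (log2 fold change −0.42, SE 0.10, edgeR adjusted p = 0.0949). Il22ra2, a soluble protein that binds and blocks Il22, was above the controls in all knockout libraries at a low level, 1.48 to 2.31 CPM against 0.833 to 1.20 CPM (0.85, SE 0.29, edgeR adjusted p = 0.186). The signalling chain and the decoy of the same ligand thus had opposite signs, and neither passed. Il10rb, the second chain of that receptor, overlapped (0.21).

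Other receptor chains gave values without a call. Il3ra had 2.31 to 2.84 CPM against 1.58 to 1.77 CPM (log2 fold change 0.69, SE 0.22, edgeR adjusted p = 0.162), and Il31ra, a chain of the receptor for the itch cytokine Il31, had 11.2 to 14.003 CPM against 5.18 to 11.4 CPM (0.68, SE 0.28, edgeR adjusted p = 0.243). The most abundant chain per length was Il20rb, shared by the Il20 and Il24 receptors, at 53.0 CPM per kb, with 206 to 209 CPM and 205 to 254 CPM. Il13ra1, which pairs with Il4ra for Il4 and Il13, followed at 35.8 CPM per kb and overlapped (−0.11, SE 0.11). Il4ra was split by a single library, with 61.1 CPM in DE679 against 20.9 and 37.0 CPM in DE685 and DE688 and 22.8 to 28.9 CPM in the control, and its log2 fold change was 0.57 (SE 0.33) with that library and 0.12 without it.

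Il1r2, the decoy receptor that binds interleukin-1 without signalling, varied most among the abundant receptors. It had 111, 14.8 and 45.7 CPM in DE679, DE685 and DE688 and 58.6, 10.4 and 64.2 CPM in DE680, DE684 and DE689. The 2 low libraries were DE685 and DE684, the 2 with Y-linked transcripts, and the groups overlapped (log2 fold change 0.37, SE 0.77, edgeR adjusted p = 0.834).

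In the TNF superfamily, neither the 14 receptors nor the 1 ligand tested gave a call by edgeR, DESeq2 or limma-voom, none had an unadjusted p under 0.05, and the groups of each overlapped. Tnfrsf1a, the main TNF receptor, was the most abundant receptor of the whole set per length, at 71.6 CPM per kb, with 178 to 206 CPM in the knockout and 175 to 193 CPM in the control (log2 fold change 0.06, SE 0.07, edgeR adjusted p = 0.718). Tnfrsf19 (Troy), known from hair follicle stem cells, had 97.6 to 132 CPM and 85.1 to 135 CPM. Tnfrsf12a, the receptor for Tnfsf12 (Tweak), had 24.4 to 30.8 CPM and 27.4 to 35.0 CPM (−0.20, SE 0.12). The lowest unadjusted p-values belonged to the decoy receptors Tnfrsf23, at 2.33 to 5.31 CPM against 2.42 to 2.59 CPM, and Tnfrsf11b (osteoprotegerin), at 4.03 to 6.11 CPM against 3.29 to 4.48 CPM (edgeR adjusted p = 0.287 and 0.363). Tnfsf13, the 1 ligand tested, had 0.622 to 1.91 CPM and 0.754 to 1.45 CPM, and the gene with the largest overlap, Tnfsfm13, covers 60.0% of its exon length.

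The 36 members not tested had 11 to 73 counts summed over the 6 libraries. They comprised 20 ligands, 15 receptors and the enzyme gene Il4i1, among them 9 of 10 TNF superfamily ligands and 7 of 16 chemokine receptors. Several cytokines known from inflamed skin were in this class, such as Il17f, Il19, Il23a and Il4. At the depth of these libraries 3 counts correspond to 0.117 to 0.173 CPM, so their values rest on few reads. In the fit without a filter, edgeR called none of the 36 (lowest adjusted p 0.146), and Ackr2, Il2ra, Tnfsf10 and Tnfsf8 had an unadjusted p under 0.05. Tnfsf10 had 1.06, 0 and 0.739 CPM in DE679, DE685 and DE688, and 0.133, 0 and 0.0793 CPM in DE680, DE684 and DE689. Tnfsf13b had 0.231 to 0.339 CPM and 0.317 to 0.444 CPM.

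Genes that carry cytokine signals inside the cell were followed in 4 lists. Of 26 tested cytokines and receptors outside the name pattern (of 41 listed, such as Csf1, Kitl and the interferon receptors), none was called, with 16 above 0 and 10 below. None of 34 tested genes of NF-kB and interleukin-1/TNF signalling was called, with 21 above 0 and 13 below. In the JAK-STAT list, none of 23 was called, with 16 above 0 and 7 below, and 10 had an unadjusted p under 0.05. The counts at an unadjusted p under 0.05 were 6 and 7 in the first and second list, against 19.0% of all genes tested. DESeq2 called none in the first list, 4 in the NF-kB list (Traf6, Tab2, Nfkb2 and Tnip1) and 5 in the JAK-STAT list (Jak3, Socs3, Socs5, Cish and Ptpn6), against 5.7% of all genes by that tool. The edgeR fit with the sex covariate called Nfkb2 in the NF-kB list and Socs3 and Cish in the JAK-STAT list, against 2.65% of all genes, and limma-voom called none in any of the 3 lists. The feedback inhibitors Socs3, at 13.3 to 14.8 CPM against 7.14 to 9.65 CPM (log2 fold change 0.70, SE 0.14, edgeR adjusted p = 0.0563), and Cish, at 40.4 to 58.6 CPM against 16.5 to 32.8 CPM (1.08, SE 0.27, edgeR adjusted p = 0.0989), lay above all controls without passing in the fit by genotype alone. Jak3, the kinase of the common gamma chain, had 4.63 to 5.55 CPM against 2.46 to 2.94 CPM (0.89, SE 0.18, edgeR adjusted p = 0.0622). Socs3, Cish and Jak3 were chosen after their values were seen, from a list whose log2 fold changes ran from −0.23 to 1.75.

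In the list on inflammasomes and cytokine processing, edgeR called 1 of 12 tested genes, against 1.6% of all genes. An unadjusted p under 0.05 was reached by 4 of the 12, against 19.0% of all genes. Gsdma3, a skin gasdermin of the pore-forming family, had 7.80, 6.64 and 9.96 CPM in DE679, DE685 and DE688 and 2.44, 2.33 and 2.697 CPM in DE680, DE684 and DE689. Every knockout library lay above all controls, and the gene rose (log2 fold change 1.71, SE 0.20, edgeR adjusted p = 0.00981). DESeq2 called 2 of the 12 (Gsdma3 and Gsdmd), against 5.7% of all genes by that tool. Gsdmd, a related gasdermin, was called by DESeq2 alone (log2 fold change 1.38, SE 0.33, edgeR adjusted p = 0.0927).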

How the data were processed

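The members and the gene lists were chosen with earlier results of these data known. RNA of 3 knockout and 3 control samples was measured. The authors deposited estimated counts per gene, of which 53.0% to 57.7% per library were whole numbers, and a normalized signal per gene, which has 0.001 added and was used only in 1 alternative. Per the submitters' processing notes, bcl2fastq 2.20, cutadapt 1.18, STAR 2.7.0f, Partek and the build mm10 were used; the counting tool's strand setting is not given in the sources used here. Column names show the group but not the mouse.

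Estimated counts were rounded to whole numbers, filtered with the filterByExpr defaults of edgeR 4.0.16, scaled with TMM factors (0.975 to 1.03) and compared by genotype alone in the quasi-likelihood test of that package (glmQLFit, glmQLFTest). Benjamini-Hochberg adjustment ran over 15422 genes, with a threshold of 0.05. An exact permutation test of 3 against 3 cannot go below 0.1, so tests rest on the fit across genes. Each standard error is the log2 fold change over the root of F. The design had been laid out for raw counts. Alternatives were upper-quartile and RLE factors, filters set to none or to a mean of 1 CPM, limma-voom, DESeq2 1.42.0 and limma-trend (limma 3.58.1; the latter on log2 of the authors' normalized signal plus 1), a sex covariate read from Xist, each library left out in turn and, chosen after seeing the data, near-identical copies summed. The fit was tested on simulated data. No 2 libraries of a group agreed within counting error (chi-square over its degrees of freedom 12.1 to 39.2).

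Genes named were every member past the threshold, the 3 most abundant and the 2 of lowest p in each of 7 families, and list genes past the threshold (at most 4 a list). Beyond that rule, genes chosen after their values were seen were Il22ra1, Cxcr2, Il11ra1, Il3ra, Il22ra2, Ccr2, Ccl20, Cxcr6, Il31ra, Il15, Il7r, Il1r2, Il1f6, Il1f9, Il1rl2, Il1rap, Ccl27b, Il17d and Il4ra, along with those given by level alone. Positions are GRCm38, 1-based, from the deposited table. Of 125 members, 120 had the same position in GENCODE M21 and 124 had an exon length there, used for CPM per kb. Promoter sequences came from RefSeq (99 members matched). Marker lists for endothelial cells, melanocytes and skeletal muscle summed to 2.66 to 3.81, 64.8 to 103 and 1.94 to 2.04 CPM in the knockout and 3.73 to 6.19, 44.0 to 70.0 and 1.38 to 2.41 CPM in the control, and none of their genes was called by edgeR. Floors in counts cover counting error only, and no molecular identifiers are mentioned. Each SE and SD also holds the spread between libraries.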

Additional observations from a re-analysis of the deposited data

How the results depend on the processing

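With 3 libraries a group, many differences lay near the threshold, and members under about 1 CPM rest on few counts. The number of genes called over all genes tested was 247, against 879 with DESeq2, 409 with the sex covariate and 69 (without DE688) to 121 (without DE684) when 1 library was left out, where fewer samples were fitted. Members called were 3, against 10 with DESeq2, 4 with the sex covariate and 1 (without DE688) to 3 with a library left out. Cxcr4 was called in every setting tried, Il7 in all but the fit without DE688, and Cx3cl1 in all but 5 of the 6 fits that left out a library. Over the named genes, the 8 other planned settings and the summed copies changed no direction and gave 8 further calls (7 genes by DESeq2, Ackr3 also with the sex covariate). Directions reversed only when 1 library was left out, in 6 genes that were not called: the log2 fold change ranged from −0.17 to 0.094 for Cxcl14 (reversed without DE679, DE684, DE685 or DE689), −0.12 to 0.12 for Il33 (without DE680 or DE685), −0.31 to 0.63 for Tnfsf13 (without DE679), −0.010 to 0.10 for Tnfrsf1a (without DE685), −0.039 to 0.30 for Tnfrsf19 (without DE684) and −0.54 to 0.81 for Il1r2 (without DE679 or DE684). The cause was not tested. No paired analysis was possible because the columns carry no replicate number.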
